A study of Homo sapiens with 21 samples.

Results

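The 10 genes described here encode transcription factors that mark or direct the lineages of the mammary epithelium: *TP63*, *SOX4*, *SOX9*, *GATA3*, *ELF5*, *FOXA1*, *NFIB*, *RUNX1*, *RUNX2* and *TBX3*. They were picked by symbol, with a rule that names no level or change, though earlier results of these data were known. Each has 1 of the 23201 gene symbols measured. RNA was sequenced from HMLE cells, a widely used line of human mammary epithelial cells made immortal in culture, to follow genes through the epithelial-to-mesenchymal transition (EMT) that the cytokine TGFβ induces. The untreated group (d0) and the groups on days 1, 4, 7, 10, 15 and 20 of TGFβ had 3 libraries each, 21 in all. All groups were the same line, no treated-day group had an untreated culture of its own day, and the dose of TGFβ is not given in the sources used here. The libraries were described as biological triplicates, without saying whether these were separate experiments, so the p-values measure the spread between these libraries only. Each gene had 1 estimate of spread, shared by the 7 timepoints. Days said not to differ beyond their spread missed an adjusted p of 0.05 with that estimate, and their libraries need not overlap.

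The mammary epithelium has an inner luminal layer, which holds milk-producing and hormone-sensing cells, and an outer basal or myoepithelial layer. TP63 holds the basal state, GATA3, FOXA1 and ELF5 direct luminal fates, and SOX9, RUNX1, RUNX2, NFIB and TBX3 act in progenitor, basal or luminal cells depending on the stage. SOX4 is a known target of TGFβ signalling that takes part in EMT.

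The recovered reads totalled 18847917 to 22667754 per library, and genes with 3 reads or fewer in a library were taken to be at the floor, which covers counting error only. Outside d7, the root mean square log2 difference between libraries of one day lay between 0.21 and 0.24 (18 pairs). At d7 the third library, by its place in the file, differed from the other 2 by 0.47 and 0.46, so the main results at d7 are given with and without it. The epithelial markers *KRT5*, *KRT14*, *EPCAM* and *CDH1* were present at d0, with mean normalized read counts of 224349, 72774, 2106 and 7195. Among markers of blood, endothelial, fat, red blood and liver cells, *PTPRC*, *CD3E*, *CDH5*, *HBB* and *ALB* were at the floor in all 21 libraries, *VWF* and *ADIPOQ* were at the floor in 3 each, and *CD14* and *PECAM1* were low and fell from 46.4 and 41.3 at d0 to 7.17 and 12.2 at d20. *FN1*, a matrix protein of mesenchymal cells, rose by 6.99 on the log2 scale at d20 (adjusted p = 1.08e-26), and of 9 TGFβ response genes it was among 8 that rose, while *CDH1* fell.

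In these cells 8 of the 10 factors were expressed well above the floor, and 2 luminal factors, *ELF5* and *FOXA1*, were at or close to it. *SOX4*, *RUNX1*, *RUNX2* and *TBX3* were higher than in untreated cells on all 6 treated days, with changes from 0.59 to 2.59 on the log2 scale. *TP63* and *SOX9* moved in both directions, and *NFIB* stayed within 0.30 of its untreated level with the deposited scaling. *GATA3* was lower at d20, with a less stable fall at d10 and less stable rises at d4 and d15. From d7 on, *TP63*, *SOX4*, *GATA3* and *RUNX2* fell, rose and fell again between sampled days, and *SOX9* and *TBX3* did the opposite at each of these steps.

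**Figure D1:**
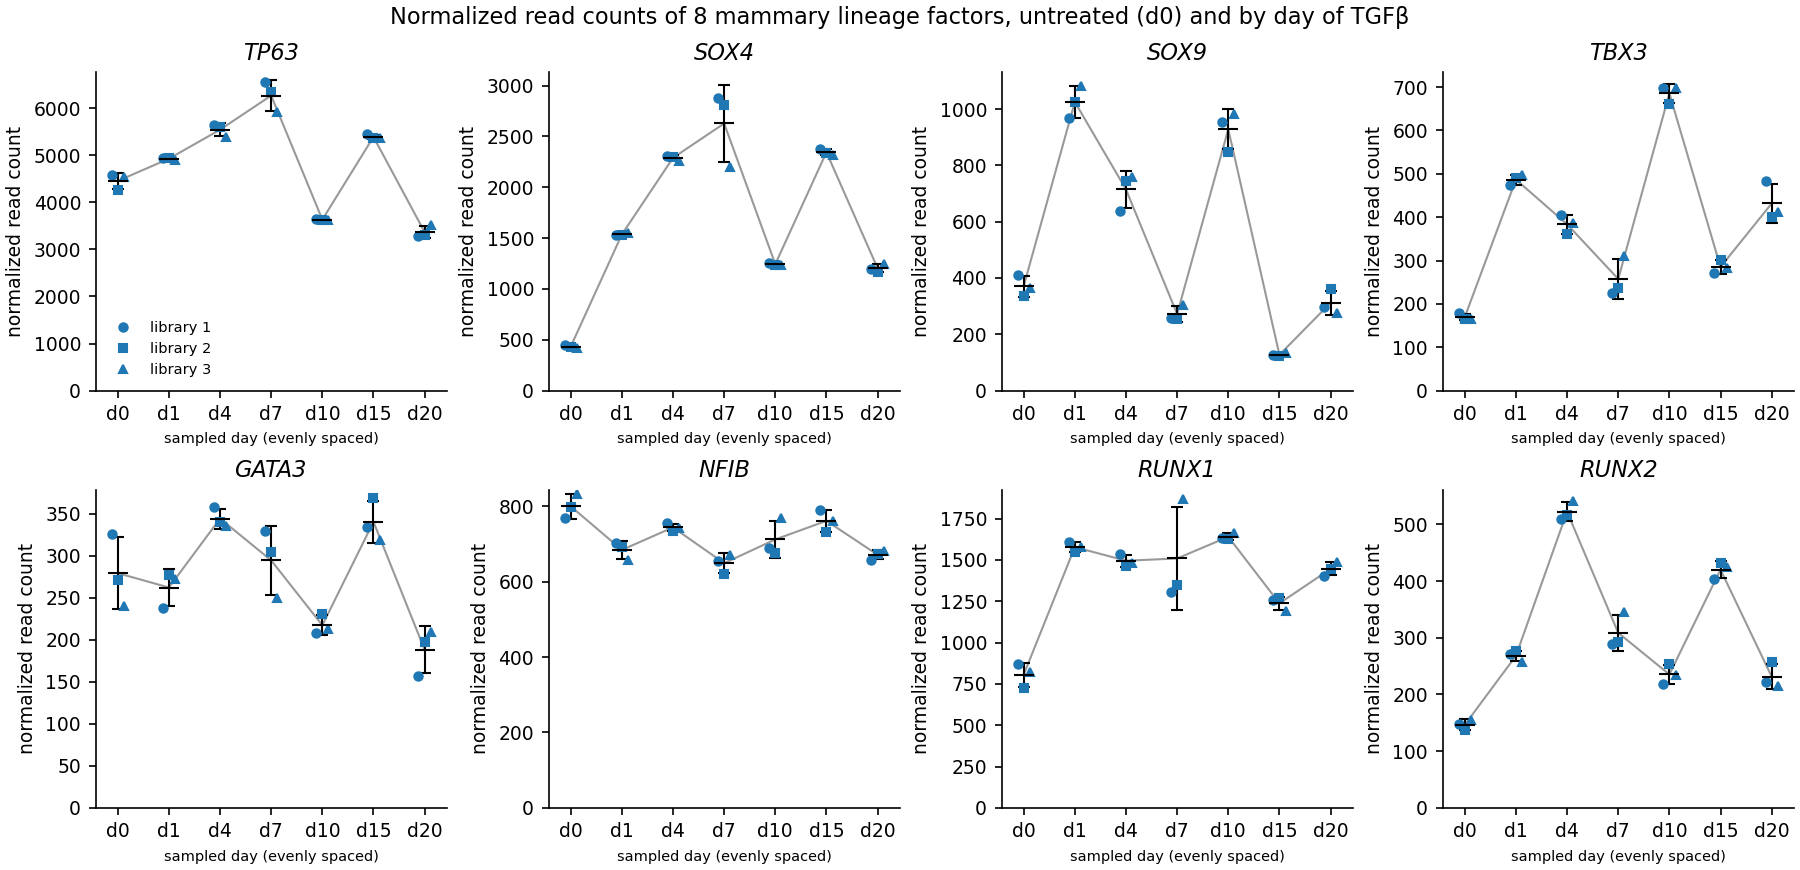
Normalized read counts (linear axis from 0) of the 8 factors above the floor, in each of 3 libraries (symbols, in file order) at d0 and on 6 days of TGFβ. Horizontal bars are means and whiskers are SD (n = 3). *SOX4*, *RUNX1*, *RUNX2* and *TBX3* lie above d0 on all 6 days, and *SOX9* and *TBX3* are high at d10, where *TP63*, *SOX4* and *RUNX2* are lower than at d7.

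On a per-length scale, which alone allows levels of different genes to be set side by side, *TP63* was the most abundant of the 10 at d0, with a mean of 907 normalized reads per kb of its longest protein-coding transcript. *RUNX1* had 111 per kb, *NFIB* 97.6, *SOX9* 94.4, *GATA3* 89.4, *SOX4* 73.9, *TBX3* 35.9 and *RUNX2* 25.7, while *FOXA1* had 2.90 and *ELF5* none. By d20 the level of *SOX4* per kb was 206 and that of *RUNX1* 199, next after *TP63* at 686. These lengths were taken from GENCODE and say nothing of which transcript the cells used.

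The sequences at the starts of *SOX4* and *RUNX2* are shown because these factors rose most over d0 at d4, d7 and d15 among those with a promoter entry, and because the starts of *RUNX2* differ in the motifs they hold. Each run is 300 bases of RefSeq sequence in GRCh38.p14, from 250 bases before the start to 50 after it, 5′ to 3′ on the gene's strand. Capitals mark matches on either strand to CAGAC (bound by SMAD proteins, which carry the TGFβ signal), TGANTCA (bound by AP-1), CACCTG (the E-box bound by ZEB and SNAIL proteins) and TGTGGT (bound by RUNX proteins). None of these motifs overlap in the runs shown. *SOX4* is at chr6:21593501-21593800 on the plus strand, and the upstream and downstream *RUNX2* starts are at chr6:45328080-45328379 and chr6:45422025-45422324, also on the plus strand.
SOX4: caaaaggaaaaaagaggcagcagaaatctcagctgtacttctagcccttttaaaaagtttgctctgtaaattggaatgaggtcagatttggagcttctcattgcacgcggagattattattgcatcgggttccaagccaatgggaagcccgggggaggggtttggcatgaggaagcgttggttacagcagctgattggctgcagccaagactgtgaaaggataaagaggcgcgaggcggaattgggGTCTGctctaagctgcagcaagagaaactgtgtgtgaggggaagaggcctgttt
RUNX2 upstream start: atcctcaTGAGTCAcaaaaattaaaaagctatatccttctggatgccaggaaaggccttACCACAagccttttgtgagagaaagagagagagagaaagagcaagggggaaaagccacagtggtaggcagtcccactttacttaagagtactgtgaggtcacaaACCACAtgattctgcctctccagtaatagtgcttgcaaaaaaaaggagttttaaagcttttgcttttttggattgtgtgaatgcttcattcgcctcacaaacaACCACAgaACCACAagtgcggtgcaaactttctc
RUNX2 downstream start: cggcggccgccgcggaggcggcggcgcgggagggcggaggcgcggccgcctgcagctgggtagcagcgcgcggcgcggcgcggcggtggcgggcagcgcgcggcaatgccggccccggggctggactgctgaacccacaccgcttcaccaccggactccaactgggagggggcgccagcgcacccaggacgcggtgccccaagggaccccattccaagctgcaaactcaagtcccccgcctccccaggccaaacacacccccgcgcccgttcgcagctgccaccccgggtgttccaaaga

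The *SOX4* run holds 1 match to CAGAC, read on the opposite strand as GTCTG, a motif found in 45.3% of the 35116 promoters of this length. The upstream *RUNX2* run holds 1 match to TGANTCA, found in 7.70% of promoters, and 4 to TGTGGT, all read as ACCACA and found at least once in 13.1%. The downstream *RUNX2* run holds none of the motifs, of which CACCTG is found in 20.6% of promoters. These matches describe letters only, and the counts per gene do not tell which start was used. Promoter entries were found for 8 of the 10 factors, with 23 starts in all, and *SOX9* and *TBX3* were not among them. The submitters' processing notes give hg19 as the build of the deposited values, so the coordinates of the runs belong to the reference sequence and not to the measured files.

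*TP63* encodes p63, which maintains basal cells and their adhesion to the basement membrane. Its normalized read counts were 4574, 4250 and 4534 on d0, 4945, 4943 and 4889 on d1, and 5637, 5608 and 5381 on d4. They were 6554, 6336 and 5911 on d7, 3652, 3622 and 3621 on d10, 5444, 5362 and 5361 on d15, and 3283, 3300 and 3517 on d20. All libraries of d1, d4, d7 and d15 lay above all untreated ones, and all libraries of d10 and d20 lay below them. The mean of 4453 ± 177 (SD, n = 3) at d0 compared with 6267 ± 327 at d7, a log2 change of 0.49 (SE 0.04, adjusted p = 4.04e-10), or 0.53 without the third d7 library. At d10 the log2 change from d0 was -0.29 (adjusted p = 9.20e-07) and at d20 -0.40 (adjusted p = 9.62e-09). The log2 change at d1 was 0.15 (adjusted p = 0.00276) with the deposited scaling, but it turned to -0.05 when libraries were rescaled to the same total and to -0.02 under quantile normalization. Rescaling to the same total moved the median log2 change of all genes by -0.20 at d4 and -0.16 at d15. As deposited, *TP63* changed by 0.32 and 0.28 on those days, and both changes kept their call on rescaling. In the order of levels, d4 and d15 did not differ beyond their spread (adjusted p = 0.390), and all other neighbouring days did. Full-length and N-terminally truncated p63 arise from separate starts of *TP63*, and values per gene do not separate them.

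*SOX4* encodes an HMG-box factor and had the largest increase of the tested factors on every treated day except d10, when *TBX3* rose more. Its normalized read counts were 444, 433 and 420 on d0, 1534, 1526 and 1546 on d1, and 2309, 2295 and 2262 on d4. They were 2876, 2810 and 2197 on d7, 1257, 1235 and 1239 on d10, 2376, 2337 and 2320 on d15, and 1200, 1165 and 1246 on d20. Every treated library thus held more than any untreated one. Treated libraries lay in 2 separate ranges, a higher one at d4, d7 and d15 (2197 to 2876) and a lower one at d1, d10 and d20 (1165 to 1546). The log2 change from d0 was 1.83 at d1 (SE 0.06, adjusted p = 4.76e-16), 2.59 at d7 (adjusted p = 8.57e-19; 2.71 without the third d7 library) and 1.47 at d20 (adjusted p = 1.45e-14). The rise of 0.19 from d4 to d7 (adjusted p = 0.0183) lost its call when the first d7 library (0.12, adjusted p = 0.134), the second (0.13, adjusted p = 0.110) or the third d4 library (0.18, adjusted p = 0.0528) was left out, and it was 0.31 without the third d7 library. Levels at d4 and d15 (adjusted p = 0.663) and at d10 and d20 (adjusted p = 0.571) did not differ beyond their spread. All d15 libraries nevertheless lay above all d4 ones. Within the 2 ranges, d1 was above d10 by 0.30 (adjusted p = 0.00108) and d7 above d15 by 0.15 (adjusted p = 0.0465).

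*SOX9*, an HMG-box factor of progenitor cells, had the widest range of the 8 factors tested, with a ratio of 8.07 between its highest and lowest daily means. Its normalized read counts were 411, 338 and 365 on d0, 970, 1024 and 1083 on d1, and 639, 744 and 760 on d4. They were 257, 254 and 303 on d7, 954, 848 and 983 on d10, 128, 121 and 133 on d15, and 298, 360 and 277 on d20. Libraries of d1, d4 and d10 all lay above d0 and those of d7 and d15 all below it, while one d20 library overlapped the untreated range. The log2 change from d0 was 1.47 at d1 (SE 0.10, adjusted p = 2.82e-11), 1.32 at d10 (adjusted p = 1.14e-10) and -1.54 at d15 (adjusted p = 4.93e-12). At d20 it was -0.26 (adjusted p = 0.0271), a call that was lost without the first d0 library (-0.18, adjusted p = 0.151), the first d20 library (-0.23, adjusted p = 0.0858) or the third d20 library (-0.18, adjusted p = 0.157). The 2 highest days, d1 and d10, did not differ beyond their spread (adjusted p = 0.271), and neither did d20 and d7 (adjusted p = 0.0914).

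*TBX3*, a T-box factor needed for the mammary gland to form, was higher on every treated day. Its normalized read counts were 178, 166 and 164 on d0, 474, 490 and 496 on d1, and 404, 361 and 386 on d4. They were 226, 236 and 311 on d7, 699, 661 and 697 on d10, 271, 302 and 282 on d15, and 483, 400 and 411 on d20. No treated library fell within the untreated range, and d10 stood above all other days. The log2 change from d0 was 1.52 at d1 (SE 0.09, adjusted p = 8.03e-12), 0.59 at d7 (adjusted p = 1.19e-05; 0.44 without the third d7 library) and 2.01 at d10 (adjusted p = 5.05e-14). At d20 it was 1.34 (adjusted p = 5.14e-11), and the d20 level did not differ beyond its spread from d1 (adjusted p = 0.133) or d4 (adjusted p = 0.124).

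*RUNX1* and *RUNX2* encode runt-domain factors that bind DNA with the shared partner CBFB. The counts of *RUNX1* were 871, 725 and 819 at d0, 1607, 1546 and 1581 at d1, and 1536, 1465 and 1483 at d4. They were 1308, 1350 and 1869 on d7, 1633, 1624 and 1663 on d10, 1255, 1267 and 1190 on d15, and 1406, 1447 and 1484 on d20. *RUNX1* thus rose at d1 and then stayed on a plateau, with every treated library above every untreated one and d15 the lowest treated day. Its log2 change was 0.97 at d1 (SE 0.09, adjusted p = 4.06e-09), 0.62 at d15 (adjusted p = 1.43e-06) and 0.85 at d20 (adjusted p = 2.90e-08). The 5 treated days other than d15 formed a run in which no neighbouring days passed the threshold, with adjusted p from 0.414 to 0.960. The shared spread of *RUNX1* takes in the widely spread d7 libraries. All d10 libraries (1624 to 1663) lay above all d1 libraries (1546 to 1607). Its d7 mean of 1509 ± 313 fell to 1329 without the third library. Without that library the step from d4 to d7, -0.01 (adjusted p = 0.960) with all libraries, became a fall of 0.17 on the log2 scale (adjusted p = 0.0038).

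*RUNX2*, best known for its part in bone and also present in basal mammary cells, had counts of 148, 137 and 155 on d0, 271, 276 and 258 on d1, and 509, 517 and 541 on d4. They were 289, 292 and 345 on d7, 219, 254 and 234 on d10, 403, 432 and 426 on d15, and 223, 257 and 215 on d20. It was thus highest at d4 and next at d15, and no treated library reached down to the untreated range. The log2 change was 1.83 at d4 (SE 0.08, adjusted p = 2.15e-14), 1.52 at d15 (adjusted p = 3.40e-13) and 0.65 at d20 (adjusted p = 5.27e-07). Levels at d1 and d10 (adjusted p = 0.0817) and at d10 and d20 (adjusted p = 0.829) did not differ beyond their spread, although all d1 libraries lay above all d10 ones. *SUPT3H* overlaps *RUNX2* on the opposite strand, and the sources used here do not say whether counting used strand, so reads shared by the pair cannot be told apart. *SUPT3H*, named for that reason, was also highest at d15 (446 ± 27.2) and d4 (368 ± 18.3), against 252 ± 17.2 at d0, with smaller changes than *RUNX2* (0.82 and 0.54 on the log2 scale).

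*GATA3*, the main zinc-finger factor of luminal cells, was expressed at d0, with a ratio of 1.83 between its highest and lowest daily means. Its counts were 326, 271 and 240 on d0, 237, 277 and 272 on d1, and 358, 340 and 335 on d4. They were 329, 304 and 249 on d7, 208, 230 and 213 on d10, 334, 368 and 319 on d15, and 157, 198 and 210 on d20. The untreated libraries spread widely and overlapped d1, d7 and d15, while all d4 libraries lay above and all d10 and d20 libraries below them. The fall at d20, -0.57 on the log2 scale (SE 0.12, adjusted p = 0.000257), was called in every alternative run. The fall at d10, -0.35 (adjusted p = 0.0118), was lost without the first d0 library (-0.23, adjusted p = 0.0988). At d4 the change of 0.31 (adjusted p = 0.0221) was lost without the second d0 library (0.30, adjusted p = 0.0573) or the third (0.21, adjusted p = 0.142), without the first d4 library (0.28, adjusted p = 0.0679), and on rescaling to the same total (0.11, adjusted p = 0.384). At d15 the change of 0.29 (adjusted p = 0.0283) was lost without the second d0 library (0.28, adjusted p = 0.069) or the third (0.19, adjusted p = 0.172), without the second d15 library (0.24, adjusted p = 0.114), and on rescaling (0.13, adjusted p = 0.304). No neighbouring days in its order of levels differed beyond their spread, although all d1 libraries lay above all d10 ones.

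*NFIB*, a nuclear factor I protein that takes part in milk-gene control and in stem cells of several epithelia, was nearly flat. Its daily means had a ratio of 1.23 between the highest, 800 at d0, and the lowest, 649 at d7. The lowest and highest single values were 621 at d7 and 834 at d0. Against d0 it was lower at d1 (-0.22, adjusted p = 0.000883), d7 (-0.30, adjusted p = 3.26e-05), d10 (-0.17, adjusted p = 0.00700) and d20 (-0.25, adjusted p = 0.000261). Its values at d4 (-0.10, adjusted p = 0.0801) and d15 (-0.07, adjusted p = 0.220) missed the threshold, and at d4 the call was gained without the first d0 library (-0.13, adjusted p = 0.0484). On rescaling to equal totals both passed, at -0.30 for d4 (adjusted p = 1.72e-05) and -0.23 for d15 (adjusted p = 0.000322). Its rise from d1 to d4 (0.12, adjusted p = 0.0472) was lost without any of 5 of the 6 libraries of those days, with values from 0.09 to 0.13, and its rise from d7 to d10 (0.13, adjusted p = 0.0289) was lost without the second d7 library (0.10, adjusted p = 0.128) or the third d10 library (0.07, adjusted p = 0.217). Both of these rises also missed the threshold under quantile normalization (0.11, adjusted p = 0.0641, and 0.09, adjusted p = 0.131) and with DESeq2 (0.12 each, adjusted p = 0.0783 and 0.0741). Without the third d10 library its step from d10 to d15, 0.10 (adjusted p = 0.0897) with all libraries, passed the threshold (0.16, adjusted p = 0.0117). That step also passed on rescaling to equal totals (0.17, adjusted p = 0.00525), under quantile normalization (0.18, adjusted p = 0.00263) and with edgeR (0.11, adjusted p = 0.0481).

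*FOXA1* and *ELF5*, factors of hormone-sensing and of milk-producing luminal cells, were too low to be tested. *ELF5* had 1 read in 1 d20 library and none in the other 20 libraries, so all 21 were at the floor, which stood between 2.54 and 3.18 normalized reads. *FOXA1* had reads in all 21 libraries but only 150 in total. Its reads per library were 11, 5 and 11 on d0, 11, 8 and 9 on d1, 9, 11 and 20 on d4, 2, 5 and 5 on d7, 3, 7 and 2 on d10, 4, 9 and 3 on d15, and 6, 7 and 2 on d20. It was at the floor in 5 libraries, of which 1 was of d7, 2 of d10, 1 of d15 and 1 of d20. With no filter on low values, the log2 change of *FOXA1* from d0 ranged from -0.96 at d10 to 0.64 at d4. Adjusted p ran from 0.103 to 0.734, so no change from d0 was detectable at this depth. Changes of *FOXA1* between treated days were not tested, and all d4 libraries had more reads than any of d7 or d10.

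**Figure D2:**
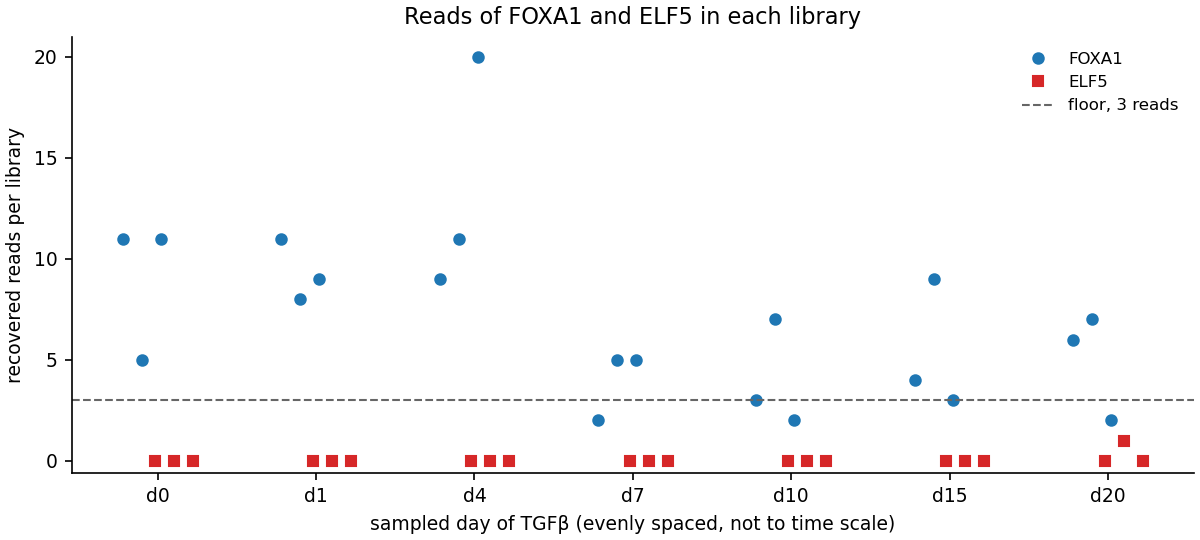
Recovered reads (linear axis) of *FOXA1* (circles) and *ELF5* (squares) in each of the 3 libraries at d0 and on 6 days of TGFβ, with the floor of 3 reads as a dashed line. *FOXA1* lies between 2 and 20 reads, and *ELF5* reaches 1 read in 1 library.

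The 8 tested factors were read against all 13343 genes tested, of which about as many passed the threshold in each direction on each day. At d1, 6 of the 8 were higher and 1 lower, while 31.3% of all genes tested were higher and 28.5% lower. At d4, 7 were higher and none lower, against 36.9% and 35.3% of all genes. The count of 0 lower at d4 from limma was also 0 at an unadjusted p of 0.05 and with DESeq2, and 1 with edgeR, which called *NFIB*. At d7, 5 were higher and 2 lower, against 34.6% and 32.6%. The median log2 change of the 8 was 0.92, 0.92 and 0.54, beside medians of 0.00, 0.01 and 0.00 over all genes. At d10, 5 were higher and 3 lower, against 37.0% and 30.7% of all genes. At d15, 6 were higher and 1 lower, against 39.2% and 37.3%. Members were thus higher more often than genes at large from d1 to d15, and the median of the 8 was 0.85 at d10 and 0.46 at d15. The factors were chosen with earlier results of these data known, so this is a description and not a test. At d20, 4 were higher and 4 lower, against 32.5% and 30.2%, and the median of the 8 had come down to 0.20. All 6 comparisons share the 3 untreated libraries, so their counts are not independent. Rescaling each library to the same total moved the median log2 change of all genes against d0 to between -0.14 and -0.20, and relative to that shift the 4 factors higher on every day kept their direction and their calls.

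The steps between consecutive sampled days gave the clearest contrast among the factors. From d1 to d4, 5 of the 8 rose and 2 fell, against 32.9% and 32.0% of all genes, and from d4 to d7, 2 rose and 4 fell, against 25.5% in each direction. *SOX9* fell at both steps (-0.52 and -1.39 on the log2 scale), as did *TBX3* (-0.34 and -0.59), while *TP63* rose at both (0.17 and 0.18). *RUNX2* rose by 0.96 to d4 and then fell by 0.76 to d7. Without the third d7 library, the step from d4 to d7 was -1.47 for *SOX9*, -0.73 for *TBX3*, 0.22 for *TP63* and -0.84 for *RUNX2*.

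From d7 to d10, 3 of the 8 rose and 4 fell, against 36.2% and 35.2% of all genes. *TP63* fell by 0.79 on the log2 scale (adjusted p = 1.14e-12), *SOX4* fell by 1.07 (adjusted p = 1.11e-11), *GATA3* fell by 0.43 (adjusted p = 0.00264) and *RUNX2* fell by 0.39 (adjusted p = 0.000259). *SOX9* rose by 1.77 (adjusted p = 3.89e-12) and *TBX3* by 1.42 (adjusted p = 3.93e-11) at the same step. At d10 *SOX4* and *RUNX2* were still above d0, by 1.52 (adjusted p = 9.21e-15) and 0.68 (adjusted p = 2.58e-07). Without the third d7 library the steps from d7 to d10 were -0.83 for *TP63*, -1.19 for *SOX4*, -0.54 for *GATA3* and -0.30 for *RUNX2*. They were 1.85 for *SOX9* and 1.57 for *TBX3*. *RUNX1*, at 0.14 (adjusted p = 0.159) with all libraries, then rose by 0.30 (adjusted p = 1.10e-06).

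From d10 to d15 the directions of *TP63*, *SOX4*, *GATA3*, *RUNX2*, *SOX9* and *TBX3* all turned. *TP63* rose by 0.57 (adjusted p = 1.61e-11), *SOX4* by 0.91 (adjusted p = 2.59e-11), *GATA3* by 0.64 (adjusted p = 3.73e-05) and *RUNX2* by 0.84 (adjusted p = 6.14e-09). *SOX9* fell by 2.86 (adjusted p = 2.61e-16), *TBX3* fell by 1.26 (adjusted p = 6.32e-11) and *RUNX1* fell by 0.41 (adjusted p = 0.000243). The step thus had 4 factors up and 3 down, against 39.3% and 40.5% of all genes.

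From d15 to d20 the directions of the same 6 factors turned once more, with 3 factors up and 5 down, against 37.7% and 36.3% of all genes. *TP63* fell by 0.68 (adjusted p = 1.89e-12), *SOX4* fell by 0.96 (adjusted p = 2.08e-11), *GATA3* fell by 0.86 (adjusted p = 1.11e-06) and *RUNX2* fell by 0.86 (adjusted p = 5.74e-09). *SOX9* rose by 1.28 (adjusted p = 1.69e-10) and *TBX3* by 0.59 (adjusted p = 7.88e-06), and the directions of all 6 at the last 3 steps were the same under total rescaling and quantile normalization. The rise of 0.22 for *RUNX1* (adjusted p = 0.0257) was lost without the third d15 library (0.20, adjusted p = 0.085), the second d20 library (0.22, adjusted p = 0.0542) or the third d20 library (0.21, adjusted p = 0.0747), on rescaling to equal totals (0.18, adjusted p = 0.0732) and under quantile normalization (0.14, adjusted p = 0.139). Consecutive steps share the libraries of the day between them, so opposite signs at neighbouring steps are not independent of each other. In bulk RNA, a change in the share of cells that express a factor and a change in its RNA per cell cannot be told apart.

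**Figure D3:**
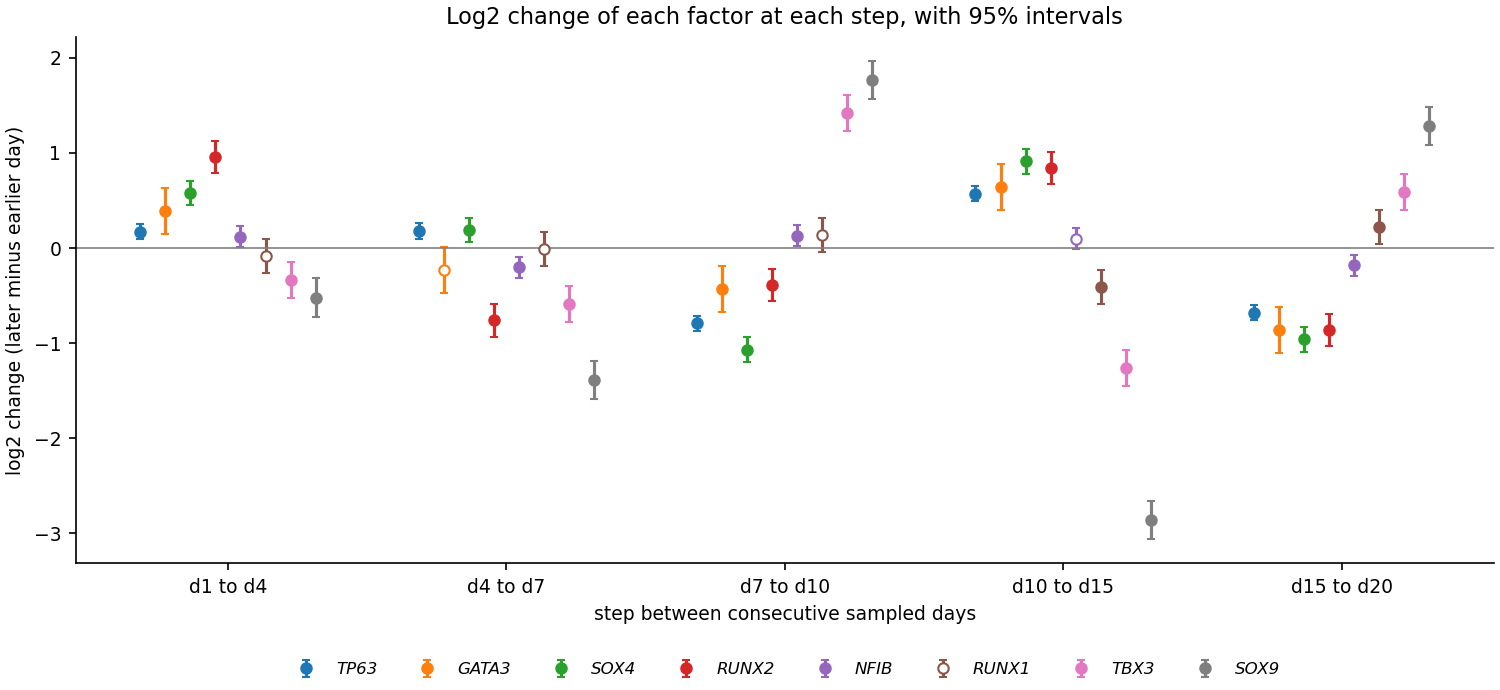
Log2 change of each tested factor between consecutive sampled days (later minus earlier), with 95% intervals from limma over all 21 libraries. Filled points passed an adjusted p of 0.05 and open points did not. From d7 on, *TP63*, *GATA3*, *SOX4* and *RUNX2* lie on one side of 0 at each step and *TBX3* and *SOX9* on the other.

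The level of *MKI67*, a proliferation marker chosen after the values were seen, moved between the same days. Its mean normalized read count was 10671 on d0, 9645 on d1, 7346 on d4, 8631 on d7, 11288 on d10, 3291 on d15 and 12122 on d20, so it was lowest on d15 and high on d10 and d20. Its log2 steps were 0.43 from d7 to d10 (adjusted p = 0.00252; 0.68 without the third d7 library), -1.78 to d15 (adjusted p = 9.84e-12) and 1.88 to d20 (adjusted p = 7.63e-12). Within d7 the third library had 11850 against 7210 and 6834 in the others, and it was also lower than they were for *SOX4*, *TP63* and *GATA3*, and higher for *TBX3*, *SOX9*, *RUNX1* and *RUNX2*. The part of proliferation in the levels of the factors was not tested.

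A list of 12 genes known to be regulated by p63 moved with *TP63* most clearly from d7 on. *KRT5*, *KRT14*, *CDH3* and *ITGB4* on it are also basal markers, and reads of *KRT14* can be shared with other keratin genes. From d7 to d10, 11 of the 12 fell and 1 rose, with a median log2 change of -1.20 beside 0.00 over all genes, of which 35.2% fell and 36.2% rose. From d10 to d15, 11 rose and 1 fell (median 1.20, beside -0.01, with 39.3% of all genes up and 40.5% down), and from d15 to d20, 11 fell and 1 rose (median -1.01, beside 0.00, with 36.3% down and 37.7% up). The exception at all 3 steps was *ITGA3*, an integrin of the basement membrane (0.39, -0.45 and 0.40). The counts at these steps were the same under total rescaling and quantile normalization, and at the first step also without the third d7 library, where the median was -1.47. This course was not particular to the p63 list. Of 17 basal and myoepithelial markers tested, 10 fell and 4 rose, then 12 rose and 4 fell, then 10 fell and 4 rose. Their medians were -0.46, 0.80 and -0.33. Of 20 paralogs and partners of the factors tested, 11 fell and 4 rose, then 12 rose and 2 fell, then 13 fell and 5 rose. Their medians were -0.23, 0.20 and -0.36. *TRIM29*, a gene of basal epithelia, fell from 5817 at d7 (7027 without the third library) to 1336 at d10, rose to 6835 at d15 and fell to 1432 at d20. *ZNF750*, a factor of epidermal differentiation, had a mean of 193 at d0 and then 19.1, 36, 72.9, 4.87, 62.2 and 14.8 on the treated days. Its d7 mean was 104 without the third library. The d10 mean was close to the floor, and 1 library of *ZNF750* was at it. The p63 list and *TP63* parted at d1, when *TP63* was 0.15 above d0 with the deposited scaling (-0.05 and -0.02 under the other scalings). Of the 12 genes, 7 were then lower and 4 higher, with a median of -0.52, against 28.5% and 31.3% of all genes. From d1 to d4, as *TP63* rose by 0.17, 8 of the 12 rose and none fell (median 0.45), against 32.9% and 32.0% of all genes. Against d0, 5 of the 12 were higher at d4 and 6 lower (median -0.11), beside 36.9% and 35.3% of all genes. *TP63* was then 0.32 above d0 with the deposited scaling, so the list and *TP63* were still apart. From d4 to d7, as *TP63* rose by 0.18, 5 of the 12 rose and 3 fell (median 0.35), against 25.5% in each direction. Without the third d7 library, 8 of the 12 rose and 3 fell at that step. By d20, 9 were lower than at d0 and 3 higher (median -0.72, against 30.2% and 32.5% of all genes), with *ITGB4*, a hemidesmosome integrin, at 1.68 and *ZNF750* at -3.62.

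**Figure D4:**
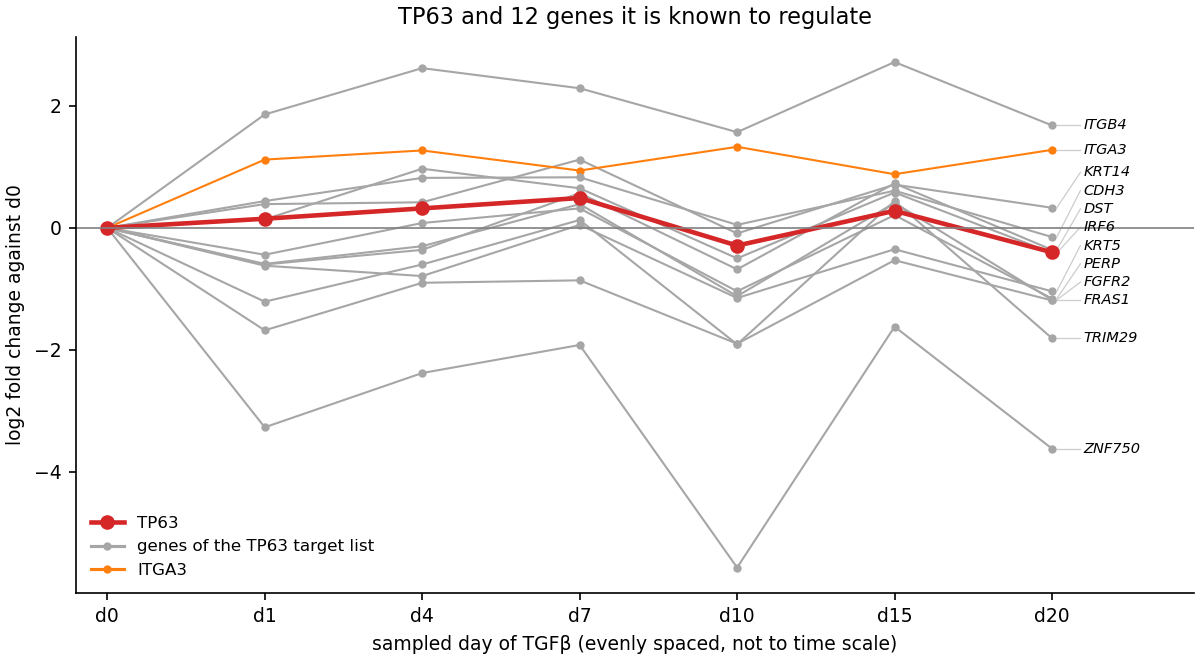
Log2 fold change against d0 of *TP63* (thick line) and the 12 genes of the p63 target list by sampled day (evenly spaced). From d7 on, 11 of the 12 go down, up and down with *TP63*, and *ITGA3* does the reverse. The value of *TP63* at d1, 0.15 here, was -0.05 or -0.02 under the other scalings.

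Markers of the lineages these factors direct were also counted at d20, when 32.5% of all genes were higher and 30.2% lower. Of 17 basal and myoepithelial markers tested, 11 were higher and 3 lower (median 0.51, beside 0.00 over all genes). The largest changes were those of *TAGLN* (4.02), *VIM* (3.62), *MME* (3.46) and *LAMA3* (2.85), of which *TAGLN* and *VIM* are cytoskeletal genes that also mark mesenchymal cells. The 3 that fell were *KRT5* (-1.04), *NGFR* (-1.81) and *CDH3* (-0.15), all known from basal cells. Of 12 luminal markers tested, 2 were higher and 7 lower (median -0.73), led by the adhesion gene *EPCAM* (-2.39), the keratin gene *KRT7* (2.10) and the secreted proteins *SLPI* (-2.04) and *AGR2* (-1.94). *AGR2* was low, with means of 48.3 at d0 and 11.9 at d20 and 1 library at the floor. Another 6 of the 20 luminal markers were at the floor in all 21 libraries, as *ELF5* was.

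A list of other factors of hormone-sensing, luminal and progenitor cells had 10 of 16 tested lower and 3 higher at d20 (median -0.34), beside 30.2% and 32.5% of all genes, with *ELF3* at -3.72, *TFAP2C* at -2.99, *MYB* at -2.66 and *GRHL2* at -2.34 on the log2 scale. The progesterone receptor gene *PGR*, *SOX10* and *ID4* were among those at the floor in all libraries. Like *GATA3*, this list fell, rose and fell from d7 on, with 11 of 16 lower at d10, 11 higher at d15 and 11 lower at d20, each against the sampled day before, beside 35.2%, 39.3% and 36.3% of all genes. Of 20 tested paralogs and partners of the 10 factors, 6 were higher at d20 and 13 lower (median -0.30), beside 32.5% and 30.2% of all genes, so the share that rose was near that of genes at large, and 12 of the 33 listed were at the floor throughout. *ELF3* and *EHF* (-1.67), epithelial relatives of *ELF5*, and *SOX6* (-1.38) were lower, and *GATA2* (1.64) was higher. *SOX6* and *GATA2* were low, with means of 24.2 and 10.8 at d0 and 9.79 and 36 at d20, and *SOX6* had 1 library at the floor.

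The genes whose course was most like that of a factor were sought among 11482 genes, by the root mean square difference of log2 daily means over 7 timepoints, each gene centred on its own mean. For *SOX4* they were *PDPN* (0.11), a membrane glycoprotein, and *DUSP10* (0.17), a phosphatase of stress kinases. For *SOX9*, the factor with the widest range, they were *STEAP1* (0.34) and *LRAT* (0.37). Both rose and fell at the same steps as *SOX9*. The measure is not scaled to a gene's range, so its values for different factors cannot be set side by side. For *TBX3* they were *DCBLD2* (0.12) and *PTPRZ1* (0.16), for *RUNX1* *LRRC8A* (0.05) and *SH3TC1* (0.06), and for *RUNX2* *JHDM1D* (0.12) and *C20orf112* (0.13). These likenesses are descriptions over the same libraries.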

How the data were processed

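The data were 21 RNA-seq libraries of HMLE cells, 3 for each of 7 timepoints. The authors deposited a normalized signal per gene symbol and library, which proved to be whole reads divided by 1 size factor per library (at least 99.97% of the values were whole within 0.01 of a read). The submitters' processing notes name STAR 2.7, Salmon 1.4 and hg19, and the test and the strand setting are not given in the sources used here. Of the genes, 13343 had an average of 10 or more across libraries, and limma 3.58.1 in R 4.3.3 compared their log2(value + 1) between timepoints (one mean per timepoint, eBayes with a trend), with Benjamini-Hochberg adjustment over all genes tested in each contrast and a threshold of 0.05. All adjusted p-values are from this fit unless another setting is named, and fold changes of low genes are understated by the pseudocount.

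The 10 factors and the gene lists were chosen with earlier results of these data known. Named genes were all 10 factors, up to 4 genes per list with the largest change at d20 among those past the threshold, the 2 genes most like each factor whose daily means spanned at least 1 on the log2 scale, and genes that complete a count of 5 or fewer. Alternatives were a pseudocount of 10, no filter (19546 genes), rescaling to equal totals, quantile normalization, only the 2 groups compared, edgeR 4.0.16 and DESeq2 1.42.0 on the recovered reads, and each library left out in turn. At d20 against d0, limma called 8365 genes, edgeR 8459 and DESeq2 7997. The tests were tried on simulated data, with an outcome that is not reported here. Motifs and lengths came from RefSeq and GENCODE sequences, and figures were drawn with matplotlib 3.10.9. Some genes of the lists are not reported here by name.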

Additional observations from a re-analysis of the deposited data

Results flagged for a closer look

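*TP63*, *SOX9* and *GATA3* stood above the untreated level on one treated day and below it on another, and the difference between those days was tested in the same limma fit. *TP63* was 0.49 above d0 at d7 and 0.40 below it at d20 on the log2 scale (log2 changes 0.49 and -0.40), a difference of 0.90 (adjusted p = 5.05e-13). *SOX9* had log2 changes of 1.47 at d1 and -1.54 at d15, a difference of 3.00 (adjusted p = 1.62e-16). *GATA3* had log2 changes of 0.31 at d4 and -0.57 at d20, a difference of 0.88 (adjusted p = 1.28e-06), but its rise at d4 was not called on rescaling to equal totals (0.11, adjusted p = 0.384). These days were picked as the highest and lowest of each gene, so the p-values are those of the widest pair among several.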

How the results depend on the processing

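Of the values recomputed for single factors, 1093 kept their direction and side of the threshold, 36 fell short of it, 13 passed it newly and 2 turned. The turned ones were the log2 change of *TP63* at d1, -0.05 on rescaling to equal totals and -0.02 under quantile normalization. Of the counts of factors called, 276 stayed within 1.5 times and 10 did not. The 2 factors higher at d7 than at d4 became 1 with only the 2 groups compared, and 1 to 2 with libraries left out, *SOX4* being the one lost. On rescaling, the factors lower at d1 and at d15 became 2 each in place of 1. At d4 none was lower than at d0, against 1 on rescaling, under quantile normalization and with edgeR, and 0 to 1 with libraries left out, *NFIB* being the one gained. No paired analysis was possible because library numbers are missing from the table's column names. The cause of the changed counts was not tested. With 3 libraries per day and at most 22667754 reads each, changes of *FOXA1* and *ELF5* from d0 were not detectable. Their changes between treated days were not tested.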
